A study of Mus musculus with 6 samples.

Results

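Glycolysis turns glucose into pyruvate in the cytosol, and fast skeletal muscle depends on it for brief, intense work. Several of its steps are encoded by sets of related genes, with a muscle-type isoform such as Pfkm, Pgam2 or Eno3 beside isoforms better known from liver, brain or blood cells. The bifunctional PFKFB enzymes make and remove fructose-2,6-bisphosphate, the signal that switches phosphofructokinase on, and the glycerol-3-phosphate dehydrogenases pass electrons from cytosolic NADH to the respiratory chain. The 31 genes described here are the enzymes of this pathway, their isoforms and its PFKFB regulators, matched by symbol to single rows among the 51911 genes of the deposited count table. The rule that picks them uses function and no measured value, though members were chosen with earlier results of these data known. Of the 31 genes, 30 were abundant enough to be tested.

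Bulk RNA was sequenced from gastrocnemius, a calf muscle, of male mice. The 3 transgenic libraries came from mice carrying HSA-PGC-1a3, in which the human skeletal actin promoter, active in skeletal muscle, drives the alpha3 isoform of the transcriptional coactivator PGC-1alpha, and 3 libraries came from wild-type mice. Age, strain and the number of animals behind a library are not given in the labels used here, so p-values measure the spread between these libraries. Total counts were 26190221 to 32593108 in transgenic against 25532146 to 40846872 in wild-type libraries. Ppargc1a, the gene of the transgene, had 73513 to 120862 counts in transgenic against 1179 to 1809 in wild-type libraries, a count that does not separate the transgene from the gene itself. Fast-fibre markers dominated the tissue, at a summed 80877 to 82846 CPM (counts scaled to library size with TMM factors) in transgenic against 153830 to 164377 CPM in wild-type libraries.

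Most steps of the pathway were lower in transgenic muscle, with falls in every main-line muscle-type gene. Together the 31 genes took 1.83%, 1.84% and 1.82% of all counts in the transgenic libraries, against 2.93%, 2.80% and 3.04% in the wild-type libraries. Of the 30 tested genes, 20 fell and 5 rose (quasi-likelihood test of edgeR, p adjusted by Benjamini-Hochberg over 16593 genes, threshold 0.05). Over all tested genes 50.7% passed, 25.2% as lower and 25.5% as higher. A fall of at least 2-fold was seen in 11 of the 30 genes, against 4.42% of all tested genes. The median log2 fold change was -0.81 over the 30 genes and -0.016 over all tested genes. CPM of the genotypes did not overlap for 25 of the 30, where 59.6% of all tested genes did not overlap, and 19 of the 25 were lower, a class that holds 29.5% of all tested genes.

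The scaling of libraries bears on the smaller changes. Without TMM factors, using library totals alone, the median of all genes moved by 0.396 to 0.38 on the log2 scale, and 85.7% of called genes were higher, against 50.2% with TMM. Of the glycolytic genes 9 were then higher and 16 lower, with a median of -0.42. Fast-fibre markers fell alongside, 9 of 11 with a median of -1.18, against 25.2% of all tested genes. Within that list Myh4 fell (-1.3), Myh2 was not called and Myh1 was higher (1.07, edgeR adjusted p = 0.0349). All 5 endothelial markers fell too (median -0.37), by less than the 0.396 shift between scalings, so that fall depends on the scaling. Of 8 slow-fibre markers 1 fell and 0 rose, with a median of 0.73. Their sum was 1505, 2881 and 1287 CPM in transgenic libraries against 988, 2101 and 878 CPM in wild-type libraries, so replicate 2 of each genotype stood above the others. The part of these fibre and cell types in the values below was not tested. In bulk tissue, fewer cells of a type and less RNA per cell cannot be told apart.

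**Figure D1:**
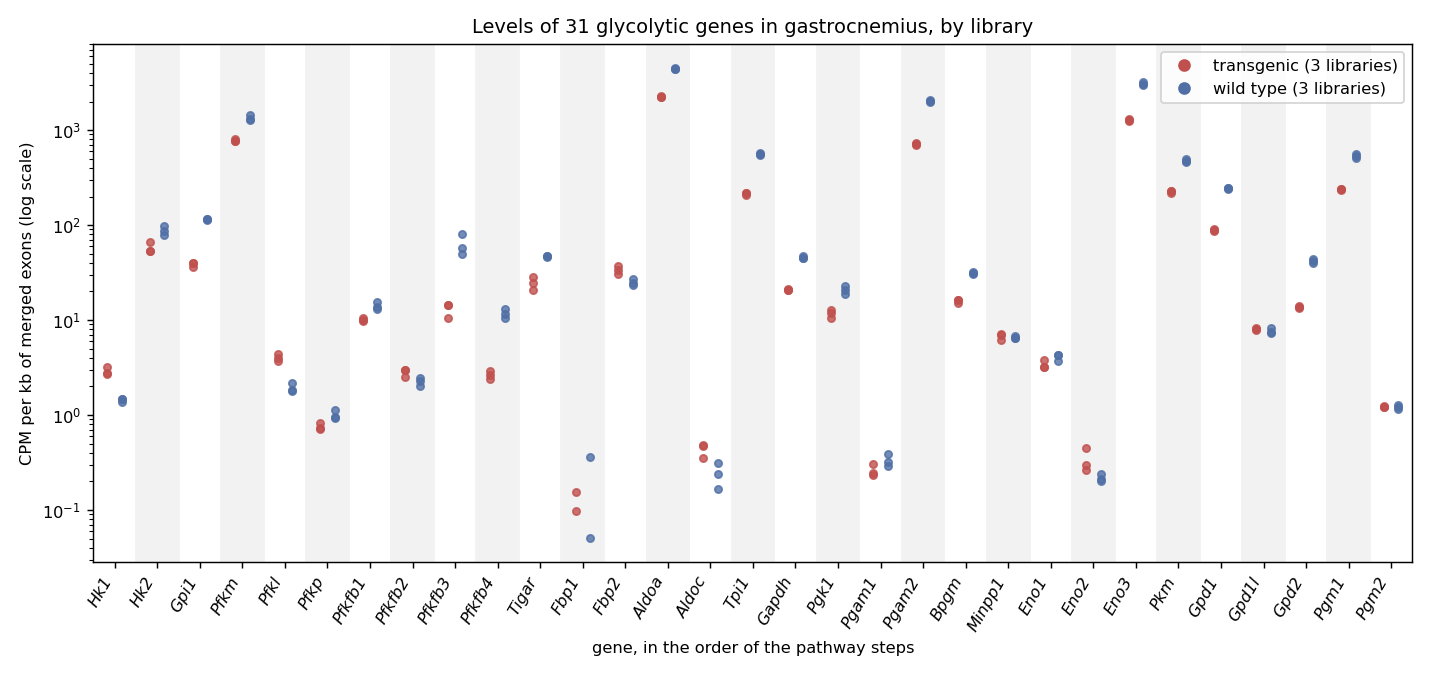
Level of each of the 31 genes in CPM per kb of merged exons (log axis) for the 3 transgenic and 3 wild-type libraries, 1 point per library. Points at 0 (Fbp1 in 1 library of each genotype) are not drawn. Aldoa, Eno3, Pgam2 and Pfkm lie above the other genes in both genotypes, and each is lower in every transgenic library than in any wild-type library.

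Levels are compared between genes as CPM per kb of merged exon length. That length joins all annotated exons of a gene and can exceed its main transcript. Ranks and isoform shares depend on it, whereas the fold change of a single gene does not. Aldoa, the aldolase of muscle, was the highest, at 2215 to 2284 in transgenic against 4352 to 4564 in wild-type libraries, followed by the muscle enolase Eno3, at 1242 to 1299 in transgenic against 3020 to 3214 in wild-type libraries. The next places changed order: Pfkm (764 to 800) lay above Pgam2 (701 to 729) in the transgenic libraries, while Pgam2 (1989 to 2097) lay above Pfkm (1281 to 1438) in the wild-type libraries. Pgm1, Pkm and Tpi1 formed the next group, at 206 to 242 in transgenic against 467 to 580 in wild-type libraries. Their neighbours in this order overlapped between libraries, Pkm with Tpi1 in transgenic and Tpi1 with Pgm1 in wild-type muscle. The last places went to Aldoc, Eno2, Pgam1 and Fbp1, each below 0.5 in every library.

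Some of these levels are understated. The counting command in the file header does not include the option that counts fragments with several genomic matches. Near-identical copies of the transcript (at least 95% identity over at least 150 bases) were found for 8 of the members in the annotated transcripts. Gapdh, the glyceraldehyde-3-phosphate dehydrogenase gene, had 79 such copies, which cover 88.0% of its transcript, and the share covered was 85.6% for Eno1, 68.8% for Pgk1, 65.5% for Pkm, 51.7% for Minpp1, 50.2% for Gpi1, 43.1% for Pgam1 and 19.3% for Tpi1. At 20.6 to 21 CPM per kb in transgenic against 45.1 to 47.1 in wild-type libraries, Gapdh ranked only 13th among the 31. Its merged exons span 4133 bases against 1420 in the transcript, which also lowers its level per kb. For Pgam2 both lengths are 840 bases. The levels of the 8 genes with copies are therefore uncertain, and their fold changes rest on the fragments that could be placed.

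The promoters of 3 genes that moved are printed with some E-boxes marked, letters bound by muscle regulatory factors and related proteins. Only the forms CAGCTG and CACGTG were searched, and other E-box forms in the windows are not marked. Pgam2 and Eno3 are shown as muscle-type genes that fell and Fbp2 as the gene of the opposing enzyme that rose. The windows, from RefSeq (GRCm38.p6), span the transcription start and are printed 5′ to 3′ on the gene's strand, with capitals marking matches to the E-boxes CAGCTG and CACGTG.
Pgam2, chr11:5803747-5804046, minus strand: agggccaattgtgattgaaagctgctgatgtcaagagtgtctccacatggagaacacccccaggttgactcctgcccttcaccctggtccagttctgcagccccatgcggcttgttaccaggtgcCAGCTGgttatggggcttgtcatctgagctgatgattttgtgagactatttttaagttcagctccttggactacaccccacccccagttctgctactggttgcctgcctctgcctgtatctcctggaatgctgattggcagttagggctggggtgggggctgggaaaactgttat
Eno3, chr11:70656926-70657225, plus strand: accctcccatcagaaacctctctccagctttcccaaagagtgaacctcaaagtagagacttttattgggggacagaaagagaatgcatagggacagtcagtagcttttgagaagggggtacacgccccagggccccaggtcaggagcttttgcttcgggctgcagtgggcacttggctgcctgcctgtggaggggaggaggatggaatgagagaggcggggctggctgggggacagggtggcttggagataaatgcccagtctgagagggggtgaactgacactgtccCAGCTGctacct
Fbp2, chr13:62858351-62858650, minus strand: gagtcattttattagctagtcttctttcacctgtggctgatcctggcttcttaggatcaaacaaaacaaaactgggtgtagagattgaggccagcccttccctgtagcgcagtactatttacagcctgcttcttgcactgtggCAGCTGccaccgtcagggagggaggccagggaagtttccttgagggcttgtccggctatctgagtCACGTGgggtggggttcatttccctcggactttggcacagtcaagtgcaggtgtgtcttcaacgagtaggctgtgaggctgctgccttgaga

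Promoters were found for 30 of the 31 genes, in each case the listed start nearest to the annotated gene start, which for Pfkfb2 was 13205 bases away. A CAGCTG match on either strand stood in 7 of the 30, among them 5 of the 19 genes that fell and the rising Fbp2, against 16.3% of all 32851 listed promoters. The other marked form, CACGTG, stood in 3 of the 30 (Pfkm, Fbp2 and Gpd1l), 1 of them among the 19 that fell, against 7.15% of all. The HIF core ACGTG, which is contained in CACGTG, was present in 11 of the 30, 6 of them among the 19 that fell, against 19.6% of all promoters. The GC box GGGCGG matched in 18 of the 30 and 35.7% of all, and the TATA box TATAAA in 2 of the 30 and 13.6% of all. The estrogen-related receptor element TNAAGGTCA was found only in Tpi1 among these windows, against 1.28% of all. The MEF2 pattern that was searched matched in none of these windows, against 0.557% of all. That pattern does not cover every form of the MEF2 site, so these windows may still hold one. In the Pgam2 window, the stretch ctatttttaa differs from the searched pattern only in its last letter. Such matches describe letters in these windows and do not show binding.

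At the first step, hexokinase traps glucose in the cell as its phosphate. Hk2, the insulin-responsive hexokinase of muscle, had 317, 393 and 316 CPM in transgenic libraries against 474, 520 and 588 CPM in wild-type libraries. Hk1, the form most tissues share, ran the other way, at 23.2, 23.4 and 27.1 CPM in transgenic libraries against 12.7, 12.5 and 11.6 CPM in wild-type libraries. For both genes the genotypes did not overlap. Hk2 fell by 0.62 on the log2 scale (SE 0.11, edgeR adjusted p = 8.34e-04), and Hk1 rose by 1.0 (SE 0.09, adjusted p = 3.67e-06). With library totals alone Hk2 no longer passed (-0.23, adjusted p = 0.0943), whereas Hk1 stayed higher (1.40). The ratio of Hk2 to Hk1, each per kb, was 19.5, 24.1 and 16.7 in transgenic libraries and 53.5, 59.6 and 72.1 in wild-type libraries, a 3.09-fold lower ratio. A ratio within a library does not depend on scaling. Hk2 nonetheless kept 95.2% of the summed level of Hk1 and Hk2 in transgenic muscle, against 98.4% in wild-type muscle. Other hexokinase genes are not part of that sum.

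Isoform ratios were tested with a two-sided exact permutation test, for which 3 libraries against 3 cannot give a p below 0.10. Of the 11 ratios, 9 separated the genotypes fully and reached that value (exact p = 0.1, adjusted p = 0.122 over the 11), so none could pass a threshold of 0.05.

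Glucose-6-phosphate is next turned into fructose-6-phosphate by the isomerase Gpi1, which had 256, 233 and 259 CPM in transgenic libraries against 738, 752 and 752 CPM in wild-type libraries. It was 3.0-fold lower (log2 fold change -1.58, SE 0.06, edgeR adjusted p = 3.14e-08), the steepest fall among the enzymes of the main line. Gpi1 shares 741 of its 6452 exonic bases with Gm26762, and fragments over both were counted for each. Members described below share exonic bases too, among them Pfkm (359 of 3340, with Gm26513 and Senp1) and Pgm1 (398 of 2921, with Itgb3bp). Gpd1 shares 384 of 2961 with Gm16537, and Gpd2 487 of 6549 with A930012O16Rik.

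Phosphofructokinase, the committed step, was changed in opposite directions by isoform. Muscle-type Pfkm had 2673, 2566 and 2550 CPM in transgenic libraries against 4278, 4342 and 4803 CPM in wild-type libraries. Pfkl, the liver-type subunit, had 26.5, 24.7 and 29.3 CPM in transgenic libraries against 12.3, 12.0 and 14.5 CPM in wild-type libraries. Pfkm thus was lower, and Pfkl higher, in every transgenic library. The log2 fold change was -0.79 for Pfkm (SE 0.07, edgeR adjusted p = 3.68e-06) and 1.06 for Pfkl (SE 0.10, adjusted p = 5.89e-06). Pfkp, the platelet-type subunit, fell to 11, 9.56 and 9.81 CPM in transgenic libraries, against 15.3, 12.4 and 12.9 CPM in wild-type libraries (log2 fold change -0.42, SE 0.10, adjusted p = 0.006), a call lost with library totals alone (-0.02, adjusted p = 0.876). Pfkp shares 748 of its 13401 exonic bases with Pitrm1. The ratio of Pfkm to the other subunits together was 2.78-fold lower in transgenic muscle. It was 149 to 174 in transgenic against 428 to 478 in wild-type libraries. Pfkl supplied 0.514% of the summed phosphofructokinase level in transgenic against 0.144% in wild-type muscle, so Pfkm remained the main form by far.

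The PFKFB genes set the level of fructose-2,6-bisphosphate, which activates phosphofructokinase, and they held the largest changes among the 31 genes. Pfkfb3, whose product has the most kinase-sided activity of the family, had 109, 109 and 78.9 CPM in transgenic libraries against 611, 439 and 380 CPM in wild-type libraries. Pfkfb4 had 12.8, 11.6 and 14.1 CPM in transgenic libraries against 63.5, 57.2 and 51.6 CPM in wild-type libraries. Both were far below the lowest wild-type library in every transgenic library. Pfkfb3 was 4.81-fold lower (log2 fold change -2.27, SE 0.24, edgeR adjusted p = 0.00101), with a wide spread among wild-type libraries, and Pfkfb4 was 4.47-fold lower (-2.16, SE 0.10, adjusted p = 6.27e-08).

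Their relatives moved less. Pfkfb1, the form of liver and muscle, had 39.8, 42.1 and 40.5 CPM in transgenic libraries against 55.2, 52.9 and 62.4 CPM in wild-type libraries (log2 fold change -0.48, SE 0.07, edgeR adjusted p = 1.77e-04). With library totals alone its value was -0.08 and did not pass (adjusted p = 0.358). Pfkfb2, the heart form, had 18.3, 21.6 and 21.6 CPM in transgenic libraries against 14.6, 17.9 and 16.6 CPM in wild-type libraries and rose by 0.32 (SE 0.10, adjusted p = 0.0169). The genotypes were separated by a narrow gap for Pfkfb2, and its call was lost without wild-type replicate 1 (0.24, adjusted p = 0.0737). Pfkfb2 shares 1416 of its 7254 exonic bases with Yod1 and Gm29427.

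The make-up of the PFKFB set changed with this. Per kb, Pfkfb3 held 45.4% of the summed PFKFB level in transgenic against 68.5% in wild-type muscle, and Pfkfb1 held 35.5% in transgenic against 15.9% in wild-type muscle. These shares depend on the length used. Merged exons span 4017 bases for Pfkfb1, against 1739 in the transcript searched for copies, and 7561 against 4634 for Pfkfb3. Which of these genes led in transgenic muscle is therefore uncertain. The ratio of Pfkfb1 to the other PFKFB genes was 2.95-fold higher in transgenic muscle, at 0.505, 0.529 and 0.619 in transgenic against 0.143, 0.182 and 0.246 in wild-type libraries. Tigar, which also removes fructose-2,6-bisphosphate, fell to 76.0, 104 and 90.0 CPM in transgenic libraries, against 174, 167 and 174 CPM in wild-type libraries (log2 fold change -0.93, SE 0.10, edgeR adjusted p = 6.95e-05).

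**Figure D2:**
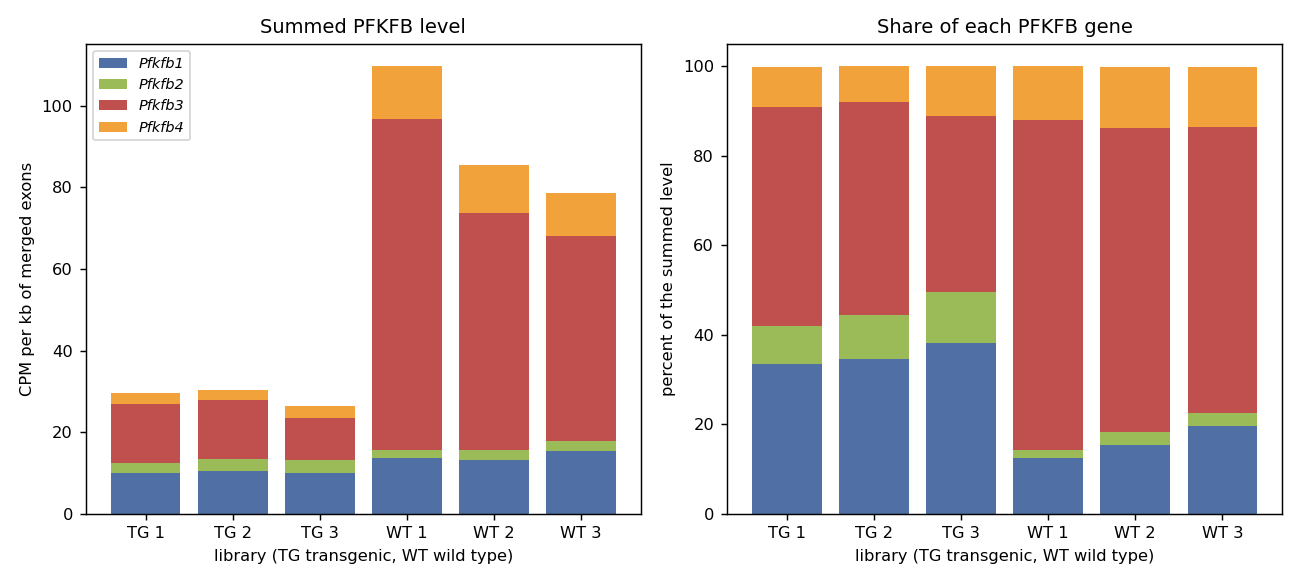
Left, summed level of the PFKFB genes in CPM per kb of merged exons, stacked by gene, for each transgenic (TG) and wild-type (WT) library. Right, the same as a percent of the sum: Pfkfb3 averages 45.4% in transgenic against 68.5% in wild-type libraries. Shares depend on the merged exon lengths used.

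Fructose bisphosphatase reverses the phosphofructokinase step. Fbp2, its muscle gene, opposes the glycolytic direction and rose, at 54.1, 44.5 and 49.7 CPM in transgenic libraries against 34.1, 35.9 and 39.5 CPM in wild-type libraries. Its log2 fold change was 0.44 (SE 0.08, edgeR adjusted p = 0.00106). No transgenic library overlapped a wild-type library. The ratio of Fbp2 to Pfkm, per kb, was 0.0461, 0.0394 and 0.0443 in transgenic libraries and 0.0181, 0.0188 and 0.0187 in wild-type libraries, 2.33-fold higher in transgenic muscle. Fbp1, the liver gene, had 8, 5 and 0 counts in transgenic libraries against 0, 3 and 14 counts in wild-type libraries and was too sparse to test. Its ratio to Fbp2 gave no separation of the genotypes (exact p = 0.7).

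Aldolase splits the sugar into trioses. Aldoa alone made up 40.6% to 41.5% of the counts of the 31 genes in transgenic against 38.4% to 38.5% in wild-type libraries. It fell to 6571, 6648 and 6448 CPM in transgenic libraries, against 12754, 12668 and 13287 CPM in wild-type libraries (log2 fold change -0.98, SE 0.06, edgeR adjusted p = 3.03e-07). Aldoc, the brain-type form, rested on 48, 35 and 57 counts in transgenic libraries against 18, 19 and 23 counts in wild-type libraries. Its log2 fold change was 0.89 (SE 0.29, edgeR adjusted p = 0.0253). The call was lost with DESeq2 (adjusted p = 0.0673) and without any 1 of 4 libraries: transgenic replicates 1 (0.84) and 3 (0.85) and wild-type replicates 1 (0.90) and 2 (0.65).

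The triose steps fell together. Tpi1, which interconverts the trioses, had 599, 566 and 606 CPM in transgenic libraries against 1502, 1544 and 1597 CPM in wild-type libraries (2.62-fold lower, SE 0.06 on the log2 scale, edgeR adjusted p = 5.45e-08). Gapdh, often used as a loading control, had 85.2, 87.0 and 86.6 CPM in transgenic libraries against 195, 187 and 186 CPM in wild-type libraries, 2.20-fold lower (SE 0.05, adjusted p = 5.22e-08). Its 78 counted copies together took 1878 to 3250 counts in transgenic against 3041 to 4666 in wild-type libraries, 80.0% of the Gapdh count over the 6 libraries. Pgk1, the X-linked kinase of the first step that yields ATP, had 28.5, 23.5 and 26.7 CPM in transgenic libraries against 46.9, 42.6 and 51.2 CPM in wild-type libraries and fell by 0.84 on the log2 scale (SE 0.09, adjusted p = 1.99e-05). For all 3 genes every transgenic library lay below every wild-type library.

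Phosphoglycerate mutase and enolase follow, each with a muscle-type gene beside forms of other tissues. Pgam2 had 613, 589 and 602 CPM in transgenic libraries against 1671, 1717 and 1761 CPM in wild-type libraries, a 2.86-fold fall (log2 fold change -1.51, SE 0.06, edgeR adjusted p = 3.03e-08). Pgam1, the form of other tissues, had 13 to 22 counts in any library and a log2 fold change of -0.37 with a 95% interval of -1.07 to 0.33, a span that holds both no change and a fall of the size seen in Pfkm. The Pgam2 to Pgam1 ratio was 2.21-fold lower in transgenic muscle, at 2255 to 3032 in transgenic against 4918 to 6909 in wild-type libraries.

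Eno3 fell to 2215, 2160 and 2258 CPM in transgenic libraries, against 5327, 5252 and 5589 CPM in wild-type libraries (log2 fold change -1.29, SE 0.06, edgeR adjusted p = 7.75e-08). Eno1, the ubiquitous enolase, had 17.2, 17.4 and 20.2 CPM in transgenic libraries against 23.3, 22.9 and 20.1 CPM in wild-type libraries, which overlap. Its small fall (-0.27, SE 0.09, adjusted p = 0.0248) was lost with DESeq2 (adjusted p = 0.0517) and without any 1 of 4 libraries, transgenic replicates 1 and 2 (-0.21 each) and wild-type replicates 1 (-0.24) and 2 (-0.25), and turned to 0.12 with library totals alone. Eno2, the neuronal enolase, had 64, 42 and 46 counts in transgenic libraries against 23, 33 and 25 counts in wild-type libraries. Its log2 fold change of 0.63 (SE 0.27) did not pass (adjusted p = 0.0715), though it did without transgenic replicate 3 (0.80, adjusted p = 0.0393) and with library totals alone (1.02, adjusted p = 0.00657). Nerve and Schwann cell markers, which could accompany Aldoc and Eno2, summed to 265, 68.8 and 94.2 CPM in transgenic against 214, 164 and 105 CPM in wild-type libraries, with 0 of 6 tested markers called. Transgenic replicate 1 was the highest library for this sum and, in CPM, for both genes. Aldoc was nearly as high in transgenic replicate 3 (1.53 against 1.58 CPM). Among wild-type libraries, replicate 3 had the lowest sum but the highest Aldoc (1.02 CPM) and Eno2 (1.11 CPM). The part of nerve RNA was not tested. The ratio of Eno3 to Eno1 and Eno2 together was 2.10-fold lower in transgenic muscle, at 322 to 352 in transgenic against 674 to 807 in wild-type libraries.

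**Figure D3:**
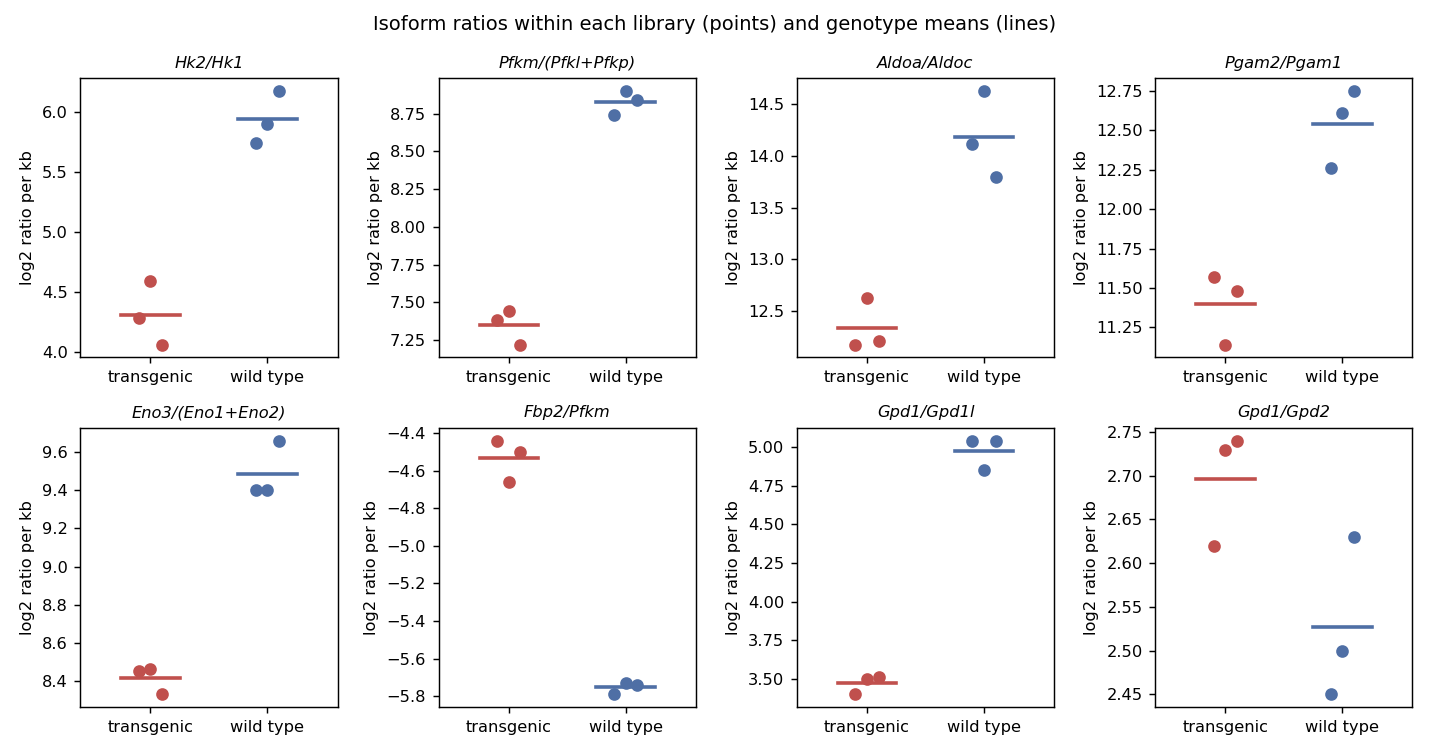
Log2 ratio of isoform levels per kb within each library, for 8 of the 11 ratios; points are libraries and lines are genotype means (transgenic left, wild type right). In 7 panels the genotypes do not overlap, with Fbp2/Pfkm higher and 6 muscle-type ratios lower in transgenic muscle; Gpd1/Gpd2 overlaps.

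Pyruvate kinase, the last step, is encoded in muscle by Pkm, whose M1 and M2 splice forms gene-level counts do not separate. Pkm had 1096, 1155 and 1152 CPM in transgenic libraries against 2335, 2376 and 2501 CPM in wild-type libraries, 2.12-fold lower (log2 fold change -1.08, SE 0.06, edgeR adjusted p = 2.29e-07). It shares 767 of its 5001 exonic bases with Gm49759. Across the 10 main-line enzymes that dominate in muscle, from Hk2 to Pkm, all 10 fell, against 25.2% of all tested genes. Their median log2 fold change was -1.11, and 9 of them stayed lower with library totals alone, Hk2 being the exception. Of the 7 other isoforms of the same steps, 3 rose (Hk1, Pfkl and Aldoc), 2 fell (Pfkp and Eno1) and 2 did not pass (Pgam1 and Eno2). Those that fell make 28.6% of the 7, against 25.2% of all tested genes, of which 25.5% rose. So few genes did not stand far from the background. The median log2 fold change of the 7, 0.63, is the value of Eno2, which did not pass.

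**Figure D4:**
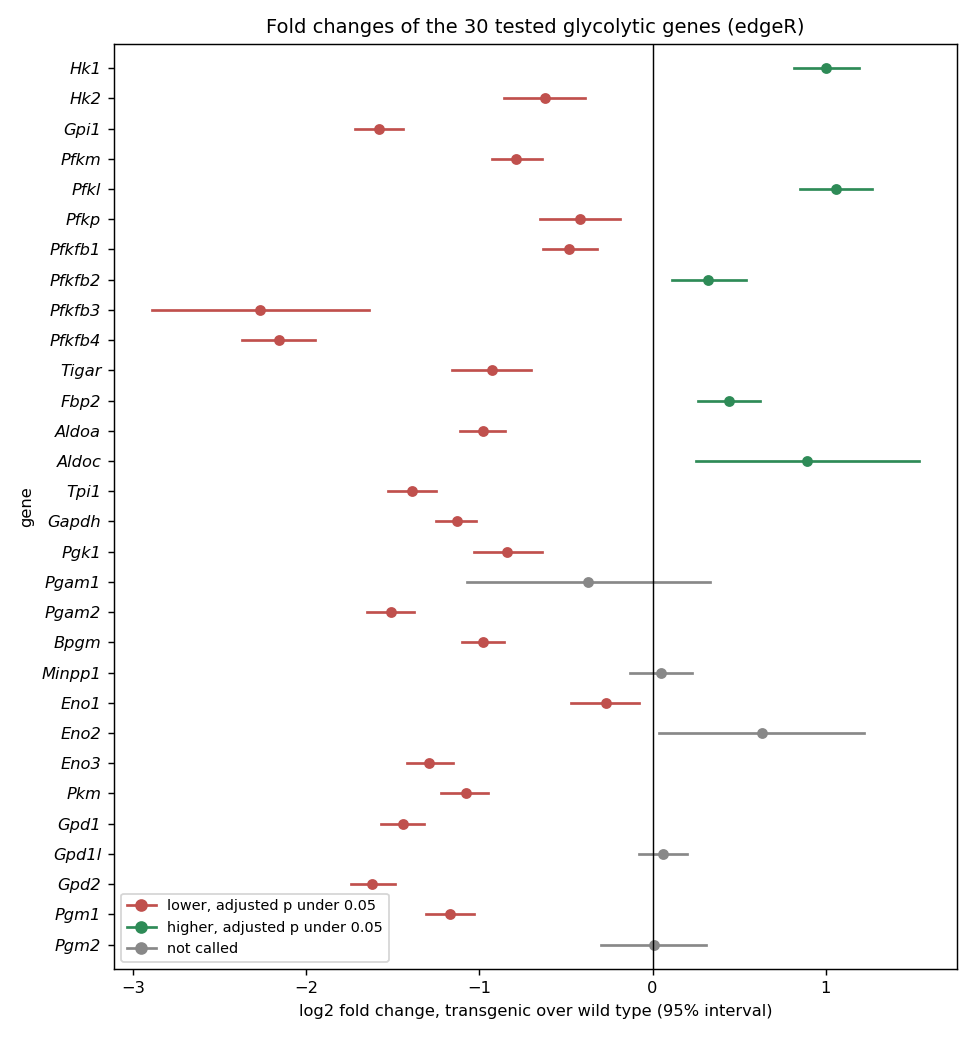
Log2 fold change (transgenic over wild type, TMM scaling) with 95% interval for the 30 tested genes, in pathway order; colours mark genes called lower, higher or not called at an edgeR adjusted p of 0.05. Most muscle-type enzymes sit between -0.79 and -1.58, while Hk1 and Pfkl lie near 1.

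A side branch at the mutase step makes bisphosphoglycerate, the red cell regulator of haemoglobin. Bpgm, its synthase, had 58.8, 58.0 and 54.1 CPM in transgenic libraries against 114, 110 and 113 CPM in wild-type libraries (log2 fold change -0.98, SE 0.06, edgeR adjusted p = 2.10e-07). Red cell markers, including the globins, were lower in the same libraries, at a summed 47.3 to 51.1 CPM in transgenic against 57.1 to 71.8 CPM in wild-type libraries, with 3 of 5 tested markers called lower and a median of -0.38. That median is smaller in size than the 0.396 by which library totals alone moved the median of all genes. The part of red cells in the Bpgm value was not tested. Minpp1, a phosphatase that can act on the same metabolite, did not pass (0.05, 95% interval -0.13 to 0.23), though with library totals alone it was higher (0.44, adjusted p = 7.02e-04).

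The glycerol phosphate shuttle carries cytosolic reducing equivalents to mitochondria, with Gpd1 on the cytosolic and Gpd2 on the mitochondrial side. Gpd1 had 257, 271 and 265 CPM in transgenic libraries against 721, 706 and 728 CPM in wild-type libraries. Gpd2 had 92.4, 90.5 and 87.4 CPM in transgenic libraries against 291, 276 and 260 CPM in wild-type libraries. Both sides of the shuttle fell, Gpd1 by 1.44 (SE 0.06, edgeR adjusted p = 3.08e-08) and Gpd2 by 1.62 (SE 0.06, adjusted p = 2.26e-08) on the log2 scale. The ratio of Gpd1 to Gpd2 was 6.14, 6.61 and 6.70 in transgenic libraries against 5.48, 5.65 and 6.18 in wild-type libraries, a log2 difference of 0.17 (exact permutation p = 0.2). Of the wild-type libraries, only replicate 3 overlapped the transgenic range. Gpd1 is also abundant in fat cells. Adipocyte markers summed to 39.9, 8.46 and 23.8 CPM in transgenic against 155, 21.9 and 16.5 CPM in wild-type libraries, and 0 of 6 markers passed the test (median -1.45). Their part in the Gpd1 value was not tested.

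Gpd1l, the related cytosolic enzyme, did not share this fall. It had 41.6, 40.9 and 39.9 CPM in transgenic libraries against 37.5, 42.0 and 37.8 CPM in wild-type libraries, with a log2 fold change of 0.06 and a 95% interval of -0.08 to 0.20. With library totals alone it was higher (0.46, adjusted p = 4.13e-05). The ratio of Gpd1 to Gpd1l was 2.84-fold lower in transgenic muscle, at 10.6 to 11.4 in transgenic against 28.8 to 33.0 in wild-type libraries, and Gpd1l made up 7.25% of the summed dehydrogenase level in transgenic against 2.64% in wild-type muscle.

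Phosphoglucomutase links glycogen breakdown to glycolysis. Pgm1 had 682, 704 and 707 CPM in transgenic libraries against 1642, 1500 and 1565 CPM in wild-type libraries, 2.25-fold lower (log2 fold change -1.17, SE 0.06, edgeR adjusted p = 1.49e-07). Pgm2, which the annotation places on chromosome 5 and Pgm1 on chromosome 4, was at 3.16, 3.13 and 3.24 CPM in transgenic libraries against 3.03, 3.28 and 3.16 CPM in wild-type libraries. Its log2 fold change was 0.01, with a 95% interval of -0.30 to 0.31, and 0.40 (adjusted p = 0.0251) with library totals alone. The Pgm2 to Pgm1 ratio was 2.26-fold higher in transgenic muscle.

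Genes next to the pathway, listed by function, moved in both directions. Pcx, the pyruvate carboxylase gene of gluconeogenesis, had 78.9, 78.8 and 86.3 CPM in transgenic libraries against 125, 109 and 124 CPM in wild-type libraries. It fell by 0.55 on the log2 scale (SE 0.07, edgeR adjusted p = 5.06e-05), with no overlap between the genotypes.

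Of 8 pentose phosphate genes, 3 rose and 2 fell, where 25.5% of all tested genes rose and 25.2% fell, so the list did not stand far from the background. Pgls (0.74, SE 0.08, edgeR adjusted p = 2.95e-05), Taldo1 (0.47, SE 0.06) and Pgd (0.35, SE 0.07) rose and Rpia fell (-0.53, SE 0.08); Pgls shares 776 exonic bases with Fam129c. Of 14 genes on other branches, 3 rose and 8 fell (57.1% lower, against 25.2% of all tested genes). Sord, the sorbitol dehydrogenase gene, was 2.64-fold lower (-1.40, SE 0.07, adjusted p = 1.30e-07) and the hexosamine enzyme gene Gfpt2 fell by 0.69 (SE 0.11), while the fructokinase gene Khk (0.86, SE 0.08, adjusted p = 7.70e-06) and Psph of serine synthesis (0.62, SE 0.10) rose. With library totals alone 12 of these neighbouring genes were higher and 2 lower, against 6 and 12 with TMM.

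The authors' deposited table, whose 3614 genes all have a log2 fold change of 0.585 or more in size and a p no higher than 0.0499, holds 20 of the 31 genes, 17 of them lower and 3 higher (Hk1, Pfkl and Aldoc). The authors' deposited table gives -2.073 for Pfkfb3, -2.12 for Pfkfb4 and -1.594 for Gpi1.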

How the data were processed

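Per the labels' protocols, RNA from frozen, pulverised gastrocnemius was taken up in Trizol and sequenced from an Illumina library. Per the submitters' processing notes, reads were aligned with STAR 2.5.0a to GRCm38.p6 and compared with DESeq2. The deposited table holds raw fragment counts from featureCounts 2.0.0; per the file headers, strand was ignored and fragments lying over more than 1 gene counted for every such gene. The authors' deposited table of log2 fold changes and p-values holds only genes past a fold and p limit, and was used to describe.

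Symbols, positions and merged exon lengths came from GENCODE M21 (GRCm38), where 51633 of the 51911 IDs were found. Genes were filtered (filterByExpr), scaled with TMM and tested in R 4.3.3 with edgeR 4.0.16 (robust quasi-likelihood fit, genotype as sole term), adjusted over all 16593 tested genes at a threshold of 0.05. Log2 fold changes are transgenic over wild type, with SE as their size divided by the square root of F. Ratios used counts plus 0.5 per kb. A count of 3 equals 0.0804 to 0.134 CPM. The test was run on simulated counts. Same-genotype libraries differed by more than counting error (chi-square over its degrees of freedom, 10.8 to 26.1). Alternatives were DESeq2 1.42.0, limma 3.58.1 voom, other scalings and filters, a block on the replicate number, and leaving out each library in turn. All 31 members are named; of neighbouring genes, up to 4 called genes per list by smallest p, of which 1 result is not reported here. Members and lists were chosen with earlier results of these data known.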

Additional observations from a re-analysis of the deposited data

How the results depend on the processing

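With library totals alone 9 glycolytic genes were higher (5 with TMM) and 16 lower (20 with TMM), and of the neighbouring genes 12 were higher and 2 lower; that setting moved Eno1 to 0.12 and Pgam1 to 0.03. The cause of the difference between scalings was not tested. Under every other scaling, filter and test tried, 4 or 5 glycolytic genes were higher and 19 or 20 lower. Leaving out 1 library gave 3 to 5 higher and 19 to 20 lower; 3 were higher without wild-type replicate 1, where Aldoc and Pfkfb2 lost their calls. Pgm2, near no change, ranged from -0.03 to 0.04. Neighbouring genes gave 6 to 7 higher and 8 to 11 lower. The 10 isoform ratios other than Fbp2 to Fbp1 kept their direction without any 1 library; Fbp2 to Fbp1 ranged from -0.58 to 1.92 on the log2 scale (0.78 with all 6), as Fbp1 had 0 to 14 counts. Offsets of 0 and 5 counts kept every direction, with no value for Fbp2 to Fbp1 at 0. Correlations of deviations between same-numbered libraries were 0.101, -0.0884 and -0.21. These few values show no pairing by number but cannot exclude one. With the replicate block 5 glycolytic genes were higher and 20 lower, as without it. Depth limits Fbp1, Pgam1, Aldoc and Eno2.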
